A study of Homo sapiens with 7 samples.

Results

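The FGF receptor family consists of 4 genes, FGFR1, FGFR2, FGFR3 and FGFR4, and all 4 were among the 14294 genes with reads in the table. They were selected by gene symbol. Together they held 147 of the 386982 listed isoforms, of which 96 belonged to FGFR1, 37 to FGFR4, 13 to FGFR2 and 1 to FGFR3. The cells were HUES66, an established line of human embryonic stem cells, kept in StemFlex medium, and polyadenylated RNA was read as full-length cDNA on a PacBio instrument. The study used Cas13d, a nuclease that cuts RNA at the place a guide RNA names, to lower single isoforms of RBFOX2, which encodes a splicing regulator. The control culture carried the genotype WT, and each of 6 further cultures the genotype RBFOX2 isoform KD, with an RBFOX2 id of its own: 178149 in G5, 178147 in G3, 178146 in G14, 178145 in G13, 178136 in G11 and 178135 in G12. All 7 cultures, the control included, had been given doxycycline at 1 µg/ml, were harvested at 24 h and have the description piggyBac. The isoform that an id stands for was not given in the sources used here. Each condition is 1 library, so no difference below has a replicate check, no p-value was computed, and intervals are at 95% and cover counting error only.

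FGF receptors are tyrosine kinases of the cell surface that bind fibroblast growth factors together with heparan sulfate, pair up, and pass the signal through the adaptor FRS2 to the RAS, RAF and MAP kinase cascade. FGF2 acting on FGFR1 is a standard component of media that keep human embryonic stem cells pluripotent. In FGFR1, FGFR2 and FGFR3 the last part of the third immunoglobulin-like domain is encoded by either of a pair of exons, IIIb or IIIc, which sets the ligands a receptor can bind. FGFR4 has no such pair.

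The sequences on which a result below turns are the bases at both FGFR4 start sites. They were taken from RefSeq (GRCh38.p14), where FGFR4 and FGFR2 were matched by symbol. Each window ends 10 bases past a start site that RefSeq annotates, and those 10 bases are in capitals. The leading FGFR4 isoforms in these libraries begin at 177086896 and 177089548, ahead of the RefSeq starts (177086915 and 177089550), so the last lower-case bases of each window were also read here. The upstream window lies at chr5:177086665-177086924 and the downstream window at chr5:177089300-177089559, both on the plus strand.
FGFR4 upstream: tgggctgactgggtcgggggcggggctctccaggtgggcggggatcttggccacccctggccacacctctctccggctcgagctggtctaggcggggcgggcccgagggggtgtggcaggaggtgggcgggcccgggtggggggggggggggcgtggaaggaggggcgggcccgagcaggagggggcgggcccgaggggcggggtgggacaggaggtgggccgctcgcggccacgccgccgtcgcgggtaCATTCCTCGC
FGFR4 downstream: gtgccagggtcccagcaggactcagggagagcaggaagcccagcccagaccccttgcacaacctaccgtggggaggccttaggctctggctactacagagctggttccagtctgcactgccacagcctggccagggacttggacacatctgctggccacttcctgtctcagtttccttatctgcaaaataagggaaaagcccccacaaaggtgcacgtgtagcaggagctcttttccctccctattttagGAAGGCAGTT
The 250 bases before the upstream RefSeq start were 79.6% G and C with 24 CpG dinucleotides, and those before the downstream start were 57.2% G and C with 2. The median RefSeq window held 11 CpG dinucleotides, and 14.7% of 35116 windows held fewer than the downstream window. The letters GGGCGG (GC box, searched on both strands) occurred 7 times in the upstream window and were not found in the downstream one. They occurred in 43.1% of all windows of this length. TATAAA and ATGCAAAT, searched in the same way, were found in neither window and in 10.9% and 1.68% of all windows. The downstream RefSeq start follows directly on the bases ag, as 4.78% of all RefSeq starts do. By the GENCODE 29 annotation it is also the first base of the exon that holds the start codon (177089550 to 177089693, start codon at 177089603), and introns typically end in ag.

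Library totals lay between 16801851 reads (control) and 26678536 reads (G12), and the floor of 3 reads was worth 0.112 to 0.179 TPM. The RBFOX2 total was 98.6% of the control in G14, 90.3% in G5, 82.5% in G12, 77.3% in G11, 52.2% in G13 and 39.2% in G3. Pluripotency markers were present in every library: 8 of 9 reached 5 TPM in all 7, and their sum lay between 1692 TPM (G12) and 2143 TPM (G5). Within this list POU5F1 was lower in all G libraries (377 to 588 TPM against 915 TPM for the control), as was NANOG (3.49 to 5.54 against 10.0 TPM). L1TD1 was higher in all 6 (24.9 to 41.0 TPM against 18.2 TPM), as was DPPA4 (766 to 1002 against 745 TPM). TDGF1 (43.8 to 59.7 against 37.6 TPM) and SALL4 (65.1 to 95.3 against 61.7 TPM) were also higher in all 6. LIN28A and ZFP42 lay on both sides of the control. DNMT3B ran from 13.4 TPM in G13 to 68.0 TPM in G3, with 44.3 TPM in the control. Of the fibroblast markers COL3A1, DCN and LUM were not listed, while COL1A1 ran from 1.58 TPM in G13 to 30.3 TPM in G3, the libraries where FGFR1 had its own extremes, and COL1A2 from 2.63 TPM in G13 to 13.3 TPM in G5, with 8.24 TPM in G3 and 11.3 TPM in the control. Of the neuroectoderm markers PAX6, SOX1 and NEUROG2 were not listed, and DCX likewise ran from 1.62 TPM in G13 to 11.6 TPM in G3. The summed mesoderm markers and the summed endoderm markers each reached at most 0.179 TPM, and the mesenchymal markers 5.10 to 6.58 TPM. The part of these genes in the results was not tested.

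FGFR1 was the most abundant FGF receptor in every library. It lies on the minus strand of chromosome 8 (38400215 to 38468834, GRCh38, GENCODE 29). Its reads numbered 1644 in G3, 812 in the control, 767 in G5, 520 in G14, 397 in G12, 343 in G11 and 214 in G13. In TPM, that is reads scaled to the library total, the level was 92.1 TPM in G3, 48.3 in the control, 30.1 in G5, 24.8 in G14, 16.5 in G11, 14.9 in G12 and 9.39 in G13. G3 stood alone above the control and the other 5 G libraries below it. Relative to the control FGFR1 was at 191% in G3 (exact interval 175 to 208), 62.4% in G5 (56.4 to 68.9) and 51.4% in G14 (45.9 to 57.4). It was lowest in G13, at 19.4% (16.6 to 22.6), followed by G12 with 30.8% (27.2 to 34.8) and G11 with 34.1% (29.9 to 38.7). In the order of levels from G3 down to G13, only the neighbours G11 and G12 were within counting error of each other (ratio 1.11, interval 0.955 to 1.28).

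FGFR4, a receptor known for binding FGF19 with the co-receptor KLB in liver, lies on the plus strand of chromosome 5 (177086886 to 177098144). Its reads numbered 343 in G5, 281 in G3, 177 in the control, 148 in G11, 135 in G12, 110 in G14 and 50 in G13. The levels were 15.7 TPM in G3, 13.5 in G5, 10.5 in the control, 7.10 in G11, 5.25 in G14, 5.06 in G12 and 2.19 in G13. Both G3 and G5 lay above the control here, whereas for FGFR1 G5 lay below it. Relative to the control FGFR4 was at 149% in G3 (123 to 181), 128% in G5 (106 to 154), 67.4% in G11 (53.8 to 84.4), 49.9% in G14 (38.9 to 63.6), 48.0% in G12 (38.1 to 60.4) and 20.8% in G13 (14.9 to 28.6). G3 and G5 could not be told apart at this depth (ratio 1.17, 0.994 to 1.37), nor could G14 and G12 (1.04, 0.799 to 1.34). All other neighbours in the order differed beyond counting error. Isoforms without a control read are missing from the table, so the ratios of FGFR1 and FGFR4 leave out reads that a G library alone contains. Of the listed isoforms, 57 of 96 for FGFR1 and 27 of 37 for FGFR4 rested on 1 control read.

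**Figure D1:**
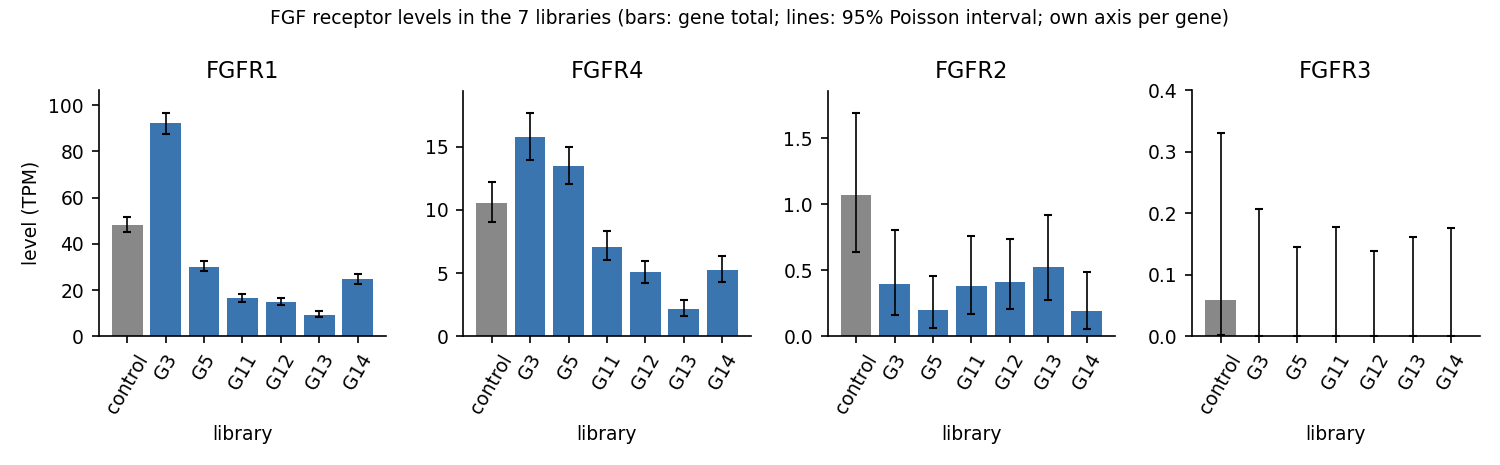
Gene totals of the 4 FGF receptors in TPM (y axis, a separate scale for each gene) in the control (grey) and the 6 G libraries (blue), with exact Poisson 95% intervals as lines. FGFR1 and FGFR4 are both highest in G3 (92.1 and 15.7 TPM) and lowest in G13 (9.39 and 2.19 TPM), and FGFR3 has 1 read in the control and none elsewhere.

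FGFR2 and FGFR3 were near or below the limit of what these libraries resolve. FGFR2 (chromosome 10, 121478334 to 121598458, minus strand) had 18 reads in the control, 12 in G13, 11 in G12, 8 in G11, 7 in G3, 5 in G5 and 4 in G14, or 1.07 TPM in the control and 0.191 to 0.526 TPM elsewhere. No fold is given for FGFR2, because every isoform in the table had at least 1 read in the control and those that a G library alone contains are missing. Of its 13 isoforms, 8 rested on a single read in the control. FGFR3 (chromosome 4, 1793293 to 1808872, plus strand) was represented by 1 read of ENST00000440486.8 in the control and by 0 reads in all G libraries. For this isoform, a count of 0 allows up to the floor of 3 reads, 0.168 TPM in G3, where the total was the lowest of the G libraries, and 0.112 TPM in G12, where it was the highest. It sets no limit for FGFR3 isoforms that the table does not list.

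The balance between the 2 expressed receptors shifted with the library. TPM here has no length term and 1 read stands for 1 cDNA molecule, so the ratio compares read numbers and long transcripts may be read less fully. FGFR1 outnumbered FGFR4 by 4.59 to 1 in the control (3.89 to 5.43) and 5.85 to 1 in G3 (5.15 to 6.66). The ratio was 2.24 in G5 (1.97 to 2.55), 2.32 in G11 (1.91 to 2.83) and 2.94 in G12 (2.41 to 3.60), all 3 below the interval of the control. In G13 it was 4.28 (3.13 to 5.95) and in G14 4.73 (3.84 to 5.86), both overlapping the control. FGFR1 accounted for 68.7% (G11) to 85.1% (G3) of the reads of the 4 genes.

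The receptors were then read against the 7877 genes with a mean of at least 5 TPM, on the scale log2(TPM + 0.5). A 2-fold difference served as the threshold. In G11, FGFR1 (log2 ratio -1.53) was below it and FGFR4 (-0.54) was not, beside 10.4% of all genes. In G12, FGFR1 (-1.67) was again below it and FGFR4 (-0.99) just short of it, beside 8.79% of all genes. In G13 both were below it, at -2.30 for FGFR1 and -2.03 for FGFR4, as were 14.6% of all genes. Neither passed it in G3 (0.92 and 0.56), where 1.89% of all genes were 2-fold above the control. In G5 (-0.67 and 0.34) and G14 (-0.95 and -0.94) neither passed, with 10.1% and 18.9% of all genes 2-fold below. FGFR1 lay at percentile 97.7 of all ratios in G3 and between percentiles 1.89 and 2.72 in G11, G12 and G13. The shared order was not rare: 20.2% of genes were, like both receptors, highest in G3 and lowest in G13, 22.8% were, like both, above the control in G3 and below it in G11 to G14, and 5.18% were, like FGFR1, at least 2-fold below the control in G11, G12 and G13.

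Transcript length and GC content moved with these ratios. FGFR1 transcripts averaged 5717 nt, at percentile 91.2 of the genes compared, with 56.1% GC (percentile 74.3). FGFR4 transcripts averaged 2770 nt (percentile 54.3), with 63.8% GC (percentile 95.5). With the trend over length and GC removed from each library, the log2 ratio of FGFR1 was 0.38 in G3, -0.32 in G14, -0.91 in G12, -0.92 in G5, -0.96 in G13 and -1.15 in G11. It kept its direction in all 6 libraries but passed the 2-fold threshold only in G11. FGFR4 was then at 0.37 in G5, 0.13 in G3, 0.12 in G14, 0.10 in G11, -0.06 in G12 and -0.47 in G13, so that none of its values was 2-fold and those of G11 and G14 changed sign. Of the genes 2-fold from the control in G13, 82 were higher and 1147 lower before the trend was removed, and 295 were higher and 377 lower after it. The lowest RBFOX2 totals were those of G3 and G13, the libraries in which FGFR1 and FGFR4 were highest and lowest; the part of RBFOX2 in this order was not tested.

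Most FGFR1 reads came from a few isoforms, and these fell into 3 classes by their ends. The isoforms holding at least 5% of FGFR1 reads on average were ENST00000397091.9 (38411638 to 38468744, 33.1%), ENST00000447712.7 (38412724 to 38468838, 15.6%), hashed isoform 1 (38412724 to 38457535, 10.2%), hashed isoform 2 (38428067 to 38468809, 9.17%), ENST00000683815.1 (38412724 to 38468785, 6.84%) and hashed isoform 3 (38412727 to 38457519, 5.52%). A hashed isoform is one whose ID in the table is no reference ID, numbered here by its mean share. The 6 isoforms held 71.3% of FGFR1 reads in the control and 79.4% to 84.1% in the G libraries, where isoforms absent from the control cannot be counted. The first class, 68 isoforms with the upstream start and the full 3′ end, is called full-length here by its ends alone; its annotated members include ENST00000341462.9, with 1101 coding nucleotides against 2460 in the leading isoform, and most of its exon structures were not examined. The second, 15 isoforms, ends more than 2 kb early, and the third, 13 isoforms, starts more than 2 kb downstream.

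**Figure D2:**
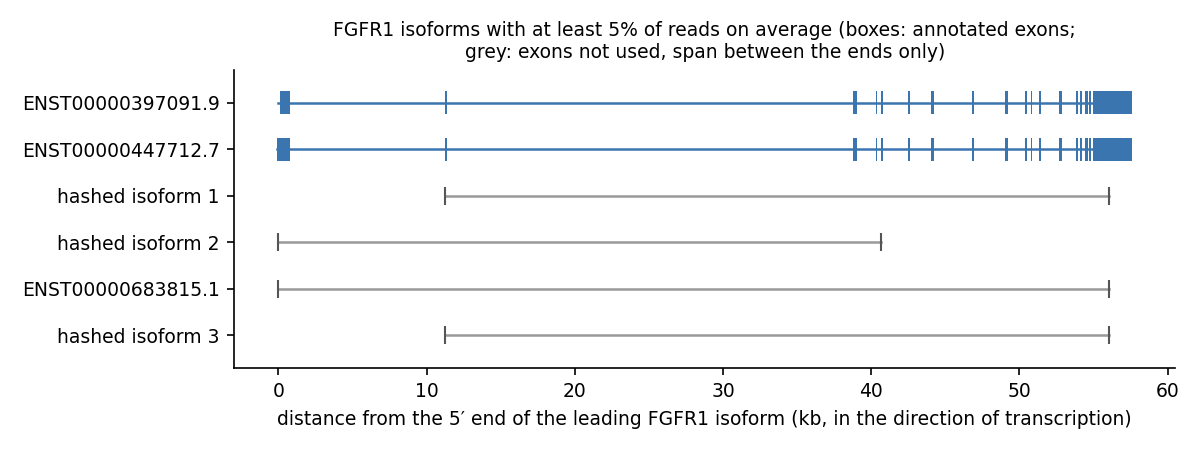
Extent of the 6 leading FGFR1 isoforms along the gene, in kb from the 5′ end of the leading isoform (x axis), with annotated exons as boxes and, in grey, isoforms for which only the 2 ends were used. Hashed isoforms 1 and 3 begin at the second annotated exon, 11.2 kb downstream, and hashed isoform 2 stops at about 41 kb.

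Full-length FGFR1 isoforms with the upstream start held the larger part of the difference in TPM from the control in every G library except G5. They were at 69.1 TPM in G3, 32.1 in the control, 23.9 in G5, 17.7 in G14, 10.7 in G11, 9.75 in G12 and 5.00 in G13. G3 was above and the other 5 were below the control, at 216% in G3 (195 to 239) and 15.6% in G13 (12.6 to 19.1). The leading isoform ENST00000397091.9 had 588 reads in G3, 314 in G5, 223 in the control, 188 in G14, 144 in G12, 108 in G11 and 51 in G13. In G5 it was within counting error of the control, at 93.0% (78.0 to 111), although the FGFR1 total was at 62.4% there. ENST00000447712.7 was at 76.6% in G5 (59.5 to 98.7) and between 18.0% in G13 and 254% in G3 otherwise.

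FGFR1 isoforms with an early 3′ end lost more TPM in G5 than the full-length class did and were scarce in every G library except G3. Of the 15 isoforms, 14 ended within 1 exon (38427921 to 38428093), after 469 coding nucleotides, so that these transcripts do not reach the exons of the transmembrane and kinase regions. Their level was 19.4 TPM in G3, 12.97 in the control, 2.12 in G5, 1.62 in G14, 1.54 in G12, 1.27 in G13 and 1.25 in G11. The 5 low libraries lay close together, at 9.62% (G11) to 16.4% (G5) of the control, with intervals from 6.15 to 22.1, while G3 was at 150% (126 to 178). As a share of FGFR1 reads the class fell from 26.8% in the control (Wilson interval 23.9 to 30.0) to 21.1% in G3, 13.6% in G13, 10.3% in G12, 7.58% in G11, 7.04% in G5 and 6.54% in G14. The share was at least 2-fold and 5 percentage points below the control in G5, G11, G12 and G14. Among 1028 genes with such isoforms the same was true of 22.9% in G14, 16% in G11, 15.1% in G5 and 9.73% in G12. The limit was not met in G3 and G13, where 10.2% and 15.1% of genes met it. In the annotated transcript, 12 of the 20 bases after the leading early end (38428067) are A, against a median of 4 over all windows of that transcript, and 1.5% of windows hold as many. The part of this A-rich stretch in where reads end was not tested.

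**Figure D3:**
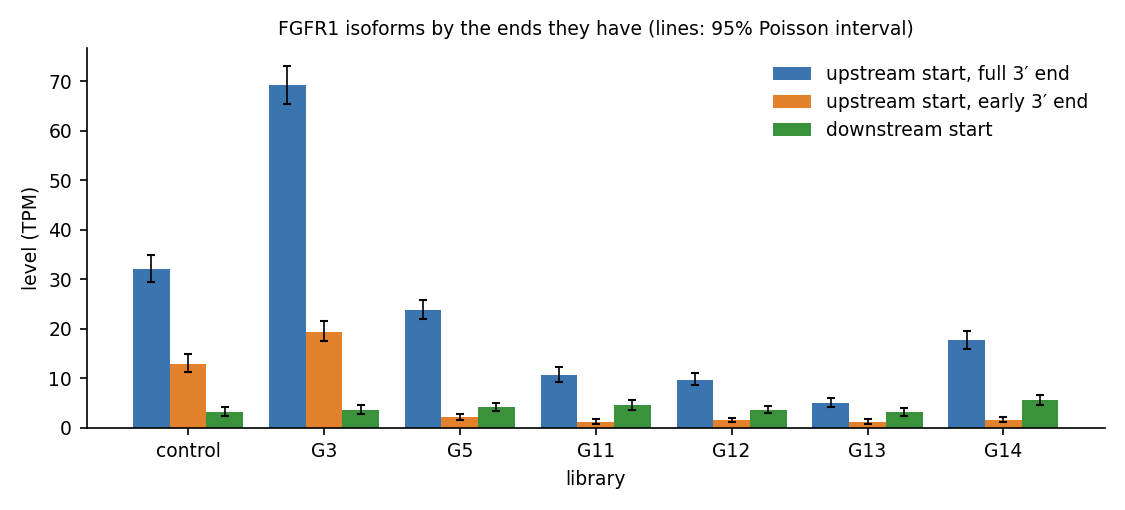
Level of FGFR1 isoforms in TPM (y axis) by class of ends in each library, with exact Poisson 95% intervals as lines. Full-length isoforms with the upstream start range from 5.00 TPM (G13) to 69.1 TPM (G3), while isoforms with the downstream start stay between 3.11 and 5.54 TPM.

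FGFR1 isoforms with a downstream start kept nearly the same level in libraries where the upstream class fell several-fold. Their 5′ ends lay between 38457442 and 38457536, at the exon that holds the start codon (38457356 to 38457534, start codon at 38457446), and the leading one, at 38457535, was 1 base outside the annotated exon edge. Their level was 5.54 TPM in G14, 4.51 in G11, 4.13 in G5, 3.60 in G12, 3.53 in G3, 3.27 in the control and 3.11 in G13. Only G14 differed from the control beyond counting error, at 169% (122 to 238). In G13 the class was at 95.2% (66.0 to 138), where the full-length upstream class was at 15.6%. The share of downstream starts among FGFR1 reads was accordingly 33.2% in G13 (27.2 to 39.7), 27.4% in G11, 24.2% in G12, 22.3% in G14, 13.7% in G5, 6.77% in the control (5.24 to 8.71) and 3.83% in G3. It was lowest where FGFR1 was highest.

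FGFR4 also had a downstream start at the edge of its start-codon exon, the site of the downstream sequence printed above. It was used by 5 isoforms, and the leading one, hashed isoform 1, began at 177089548, 2 bases before the annotated exon. Reads of this class numbered 38 in G5, 29 in G11, 22 in G14, 21 in the control, 19 in G3, 19 in G12 and 17 in G13, or 0.712 (G12) to 1.49 TPM (G5). No G library differed from the control in this class beyond counting error. Their share of FGFR4 reads was 34.0% in G13 (22.4 to 47.8), 20% in G14, 19.6% in G11, 14.1% in G12, 11.9% in the control (7.89 to 17.5), 11.1% in G5 and 6.76% in G3. FGFR4 reads from the upstream start ran from 1.45 TPM in G13 to 14.7 TPM in G3, with 9.28 TPM in the control.

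A higher share of downstream starts was common in G11 to G14. Of 1053 genes with at least 5% downstream starts on average, 33.6% had a share at least 2-fold and 5 points above the control in G13, as FGFR1 and FGFR4 did. FGFR1 also passed this limit in G14, G12, G11 and G5, beside 21.5%, 17.9%, 7.69% and 0.57% of genes, and FGFR4 in none of these. Neither passed it in G3, where 0.57% of genes did. The median share over the 1053 genes was 15.1% in G13, 12.9% in G14, 12.8% in G12, 10.8% in G11, 8.31% in the control, 7.60% in G5 and 6.24% in G3. Shorter reads of the same molecules and true starts cannot be told apart from these values, since reads carry no mark of a complete 5′ end in the table.

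**Figure D4:**
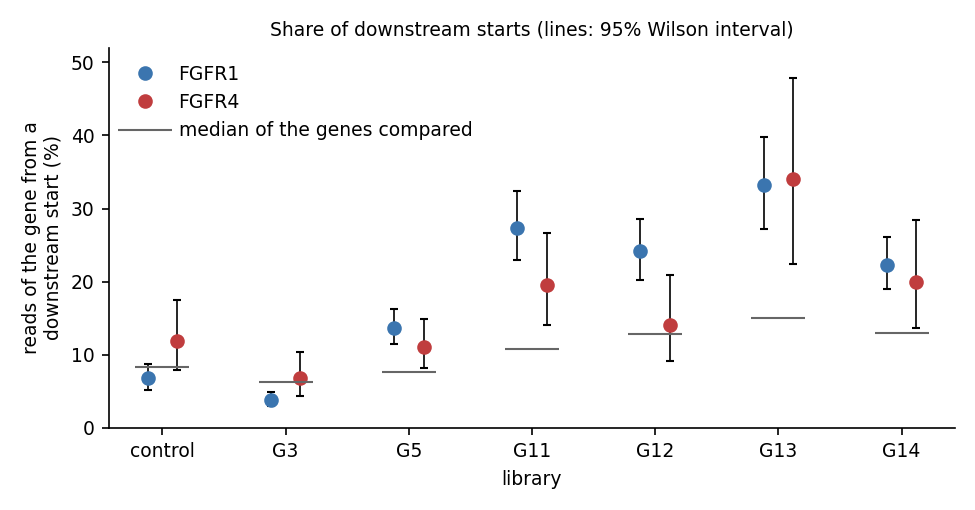
Share of the reads of FGFR1 (blue) and FGFR4 (red) that begin at a downstream start, in percent (y axis), per library, with Wilson 95% intervals; grey dashes are the median of 1053 genes. Both receptors are at their lowest in G3 (3.83% and 6.76%) and their highest in G13 (33.2% and 34.0%), and the median of all genes moves from 6.24% to 15.1%.

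FGFR1 splice forms were scored on fewer isoforms than its ends, and their shares varied less there. Only isoforms with a GENCODE 29 exon structure could be used, 380 reads in the control and 93 to 993 in the G libraries. The IIIc exon (38421797 to 38421941), which gives the mesenchymal form of the receptor, was present without the IIIb exon in 99.7% of these reads in the control (98.5 to 100) and in 99.1% (G12) to 100% (G13, G14) elsewhere. The IIIb exon (38423025 to 38423175) was found in 1 read of the control and in 7 of 2251 reads of the G libraries together. All of these were reads of ENST00000341462.9, the only usable isoform with that exon, annotated with 19 exons against 18 in the leading isoform. A IIIb form among the other FGFR1 reads would not be counted, and 380 of 812 control reads were used. The IIIc share therefore depends on which isoforms could be used and sets no limit for IIIb. The alpha exon (38429682 to 38429948), which encodes the first immunoglobulin-like domain, was included in 98.4% of reads in the control and in 97.8% to 99.4% in the G libraries. The longer form of the juxtamembrane exon (38419533 to 38419735, 203 nt against 197), which is known to carry the site bound by FRS2, held 92.4% in the control and 89.2% (G13) to 96.2% (G14) elsewhere. The form without the alpha exon and the form with the shorter juxtamembrane exon each rested on 1 usable isoform. These shares therefore also depend on which isoforms could be used.

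The splice choice of FGFR1 with the widest range was a 6-nt extension of the exon after the alpha exon (90 nt against 84, 38428346 or 38428352 to 38428435). The extended form held 39.1% of reads in the control (34.3 to 44.0), 41.9% in G13 (32.4 to 52.1), 38.3% in G3, 37.4% in G11, 34.2% in G5, 32.4% in G14 and 29.2% in G12 (23.4 to 35.7). The intervals of every G library overlapped that of the control. The G libraries together were at 35.9% (33.9 to 37.9). The extension separates the 2 leading isoforms, ENST00000397091.9 with 2460 coding nucleotides and ENST00000447712.7 with 2466.

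FGFR4 reads were led by ENST00000502906.5 (177086896 to 177098154) and ENST00000292408.9 (177086896 to 177098150), with 43.3% and 16.2% of reads on average. Both encode a protein of the same length, from 2406 coding nucleotides, so the choice between them changes no coding length. ENST00000502906.5 had 157 reads in G5, 137 in G3, 76 in G12, 71 in G11, 69 in the control, 41 in G14 and 14 in G13. Its share was between 28.0% in G13 (17.5 to 41.7) and 56.3% in G12 (47.9 to 64.4), against 39.0% in the control (32.1 to 46.3), and only the interval of G12 lay above that of the control. Hashed isoform 1, the downstream start, followed with 15.7% and hashed isoform 2 (177086896 to 177098151) with 10.6%. The shorter coding form ENST00000393648.6, with 2202 coding nucleotides, had 4 reads over all libraries.

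The isoforms that supplied FGFR2 reads varied between libraries, on 4 (G14) to 18 (control) reads each, and isoforms without a control read are missing. Hashed isoform 1 (121564325 to 121598444), which starts at the upstream promoter and ends before the exons of the IIIb and IIIc choice, had 7 reads in G3, 5 each in G5 and G12, 4 each in G11 and G14, 2 in G13 and 1 in the control. It supplied all listed FGFR2 reads of G3, G5 and G14, but its level differed from the control beyond counting error in no G library. Hashed isoform 2 (121478401 to 121520025), which starts close to the IIIc exon (121517319 to 121517463), had 2 reads each in the control, G11 and G12, 5 in G13 and 0 in the other 3. The annotated full-length form ENST00000358487.10 had 1 read in all, in the control. These counts are too low for a share of IIIb and IIIc forms of FGFR2.

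The genes through which FGF receptors act were compared next, by role. Of 79 listed genes, 68 were in the table and 42 reached a mean of 5 TPM. At least 2-fold lower were 9 of 42 in G13 (21.4%), 6 in G14 (14.3%), 5 in G12 (11.9%) and 2 in G11 (4.76%), beside 14.6%, 18.9%, 8.79% and 10.4% of all genes, and none in G3 or G5 (5.14% and 10.1% of all genes). At least 2-fold higher were 2 genes in G3, GPC1 among them, and SPRY2 in G14, beside 1.89% and 3.97% of all genes. None was 2-fold higher in G5, G11, G12 or G13, where 0.533%, 0.724%, 0.546% and 1.04% of all genes were. The median log2 ratio of the 42 genes was 0.32 in G3 (0.12 over all genes), 0.20 in G5 (0.14), -0.01 in G11 (-0.04), -0.23 in G12 (-0.16) and -0.33 in G13 (-0.21), and within 0.01 of 0 in G14 (-0.10). Without the length and GC trend, 2 were lower and 2 higher in G13.

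Ligands were scarce apart from FGF19. FGF19, the ligand that FGFR4 binds with KLB, ran from 34.0 TPM (G13) to 50.9 TPM (G5), with 35.5 TPM in the control. Neither KLB nor KL, another co-receptor on the list, was in the table. FGF2 was at 1.25 TPM in the control and did not exceed 0.97 TPM in a G library. Of the intracellular homologous factors, which act on sodium channels and not as receptor ligands, FGF13 was the highest, at 128 TPM in the control and 139 to 187 TPM elsewhere, above the control in all 6 G libraries. FGF12 was below it in all 6, at 5.15 to 7.02 TPM against 7.26 TPM.

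Co-receptors that carry heparan sulfate differed among themselves. GPC4, a glypican and the highest of them, ran from 192 TPM (G12) to 285 TPM (G5), with 214 TPM in the control. GPC1, another glypican, was like both receptors highest in G3 and lowest in G13: it was at 35.9 TPM in G3, 17.4 in the control, 16.5 in G5, 4.99 in G11, 4.84 in G12, 4.06 in G14 and 1.84 in G13. Its log2 ratio ran from 1.02 in G3 to -2.94 in G13. GPC1 falls outside the rule for named genes and was chosen after its values were seen.

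Among adaptors and kinases most values stayed within 2-fold of the control. FRS2, which docks directly on the receptor, was at 10.8 TPM in the control and 7.87 to 11.9 TPM elsewhere. SHC1, the most abundant adaptor, was at 350 TPM in G3, 335 in G5, 271 in the control, 203 in G11, 144 in G12, 143 in G14 and 95.3 in G13. PIK3R1 and RPS6KA1, a regulatory subunit of PI3 kinase and a kinase activated by ERK, were above the control in all 6 G libraries, with median log2 ratios of 0.25 each. MAP2K2, a kinase that activates ERK, was below it in all 6 (median -0.47).

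Targets and feedback inhibitors of the pathway, 11 of which were compared, mostly lay on 1 side of the control in G3, G5, G12 and G13 but were split in G11 and G14. In G3 as in G5, 9 of them exceeded the control. Only 2 did so in G12 and 1 in G13, while G11 and G14 each had 5. Their median log2 ratio was highest in G3 (0.38, against 0.12 over all genes) and lowest in G13 (-0.58, against -0.21). The median over all genes was also above 0 in G5 (0.14) and below it in G12 (-0.16). In G3, G5, G12 and G13 the counts thus lean the same way as the genes at large. The genes named here did not share a direction. All but DUSP6, the highest of the role, were named for lying on the same side of the control in all 6 G libraries. That rule leaves out genes that, like the receptors, were above the control in G3 and below it in G13. The named genes therefore cannot show whether targets follow the receptors, and whether the receptors play a part was not tested. DUSP6, a phosphatase that inactivates ERK and is induced by it, was at 281 TPM in G5, 235 in G11, 233 in G3, 225 in G14, 214 in the control, 179 in G12 and 179 in G13. SPRY2, a feedback inhibitor, was above the control in all 6 G libraries, at 7.44 TPM in the control and 8.07 (G3) to 15.4 TPM (G14). IL17RD, a membrane antagonist of FGF signalling, was below it in all 6, at 11.5 TPM in the control and 4.34 (G13) to 11.2 TPM (G5). CCND1, which encodes cyclin D1, was at 279 TPM in the control and 130 (G14) to 204 TPM (G12) elsewhere. Of the 42 genes, 5 were above and 4 below the control in all 6 comparisons, which share the control, as were 1659 and 1612 of the 7877 genes.

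Several other receptor tyrosine kinases were lower in the same libraries as FGFR1 and FGFR4. Of 8 with a mean of at least 5 TPM, 2 were at least 2-fold lower in G11 and 6 in each of G12, G13 and G14, beside 10.4%, 8.79%, 14.6% and 18.9% of all genes, and none was 2-fold higher in any library. Their median log2 ratio stood at 0.52 in G3, at 0.07 in G5 and, in falling order, at -0.74 in G11, -1.31 in G14, -1.33 in G12 and -2.17 in G13. ERBB2, an epidermal growth factor receptor family member, went from 60.9 TPM in the control to 4.61 TPM in G13, and DDR1, a collagen receptor, from 32.7 to 1.54 TPM. KIT, the stem cell factor receptor, stayed between 5.83 and 10.3 TPM. Without the length and GC trend, 4 of the 8 were 2-fold lower in G13, 2 in G14 and 1 each in G11 and G12, and the median in G13 was -0.89. Among 27 receptor tyrosine kinases FGFR1 ranked between 1 and 5 in read number in each library, and FGFR4 between 8 and 11.

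**Figure D5:**
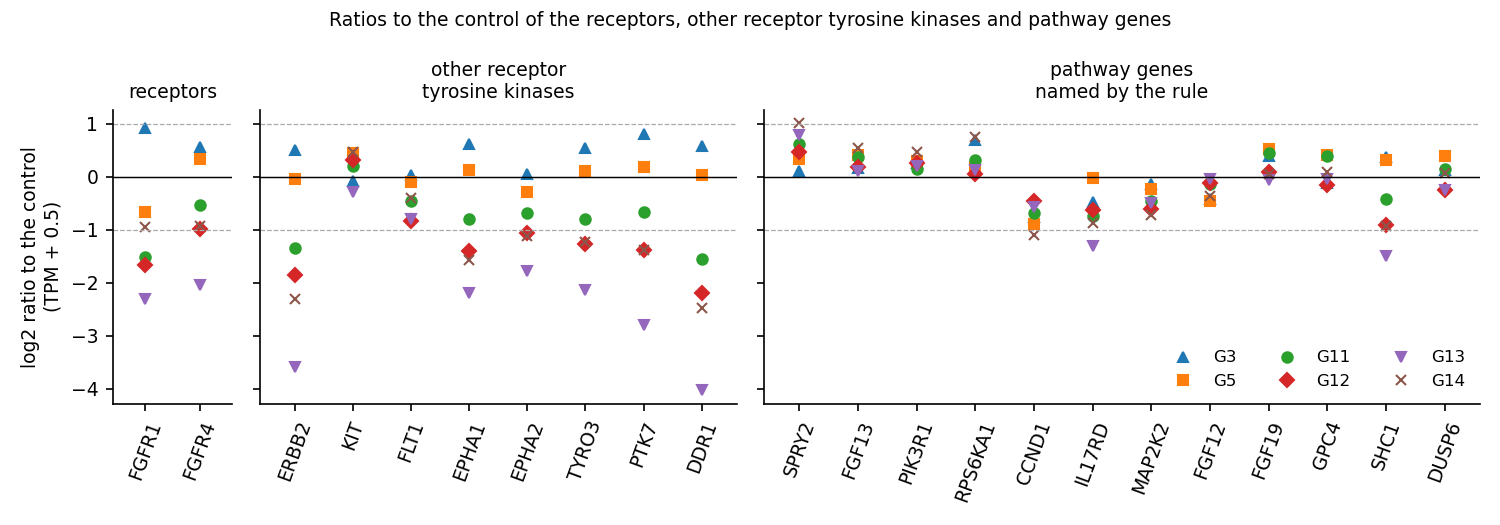
Log2 ratio to the control (y axis, TPM + 0.5) of FGFR1 and FGFR4, of 8 other receptor tyrosine kinases and of pathway genes named by the rule, 1 symbol per G library; dashed lines mark 2-fold. FGFR1 spans 0.92 (G3) to -2.30 (G13) and DDR1 reaches -4.03 in G13. Of the pathway genes, SHC1 spans 0.37 (G3) to -1.50 (G13) and DUSP6 -0.26 (G12) to 0.39 (G5).

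Regulators of the IIIb and IIIc choice were present throughout. ESRP1, which favours IIIb exons in epithelial cells, was at 153 TPM in the control and 164 (G3) to 250 TPM (G14) elsewhere, above the control in all 6. In the same libraries IIIc without IIIb held 99.1% or more of the FGFR1 reads with an annotated exon structure, with the limit given above. ESRP2 was at 15.7 TPM in the control, 20.3 in G3 and 3.73 in G13. PTBP1, which represses exons with pyrimidine-rich flanks, was at 185 TPM in the control, 282 in G3 and 67.9 in G13. TIA1 was at 32.4 TPM in the control and 27.4 to 40.0 TPM elsewhere. HNRNPA1 was at 572 TPM in the control and 591 to 686 TPM elsewhere, and HNRNPM at 915 TPM and 873 to 1308 TPM.

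The genes with the pattern most like that of a receptor were found by Pearson's r of log2(TPM + 0.5) over the 7 libraries, given as a description of points that share the control, depth and composition effects. For FGFR1 they were LSR (r 0.997), SH2B2 (0.995), LOXL1, HES1 and REPIN1 (each 0.994), among 6618 genes with a mean of at least 10 TPM, of which 367 exceeded 0.9. LSR was at 154 TPM in G3, 88.3 in the control, 56.1 in G5, 50.2 in G14, 30.9 in G11, 26.1 in G12 and 19.0 in G13. For FGFR4 they were CAPN1 (0.999), FLII, CTDP1, PASK and PYGB (each 0.998), and 1083 genes exceeded 0.9. The r between FGFR1 and FGFR4 was 0.87. CAPN1 was at 95.7 TPM in G5 and 82.3 TPM in the control. These genes were chosen for their likeness over the same 7 libraries, so their values are no separate evidence for a receptor's pattern.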

How the data were processed

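The deposited table holds, for each isoform and library, a count of full-length reads and a TPM value, per the file headers. Per the labels' protocols, cDNA molecules were joined into 8-fold arrays, sequenced on Revio and split in software into reads of 1 molecule each. The submitters' processing notes name minimap2 2.17 and GRCh38 (hg38); the tool that assigned reads to isoforms is not given in the sources used here, nor is its use of strand, so overlapping and antisense genes cannot be separated. The deposited TPM equalled the count over 1 constant per library to within 0.01, with no length term. Every listed isoform had at least 1 control read; 98.1% to 98.6% of each G library was listed.

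Counts were summed per gene by Ensembl stem (Python 3.11.15, pandas 2.3.3, numpy 2.4.6, scipy 1.17.1), and symbols were found for 14287 of 14294 genes. Ratios used a pseudocount of 0.5 TPM and a mean of at least 5 TPM. Intervals are exact (Clopper-Pearson for ratios, Poisson for levels) or Wilson for shares. Exons and lengths came from GENCODE 29 by transcript ID without its version; 2 of the 8 reference IDs of FGFR1 had no match. Starts were taken as counted from 0 and printed with 1 added, so ends are uncertain by at least 1 base. A downstream start or an early 3′ end lies more than 2 kb inside the ends of the leading isoform. The functions were tested on simulated data. Members and gene lists were chosen with earlier results of these data known. Named genes were the receptors, isoforms with at least 5% of reads on average (at most 6 per gene, or 2 under 1 TPM), the 5 genes most like FGFR1 or FGFR4, the highest gene of each role, up to 5 pathway genes each that were highest or lowest by their median ratio among those on the same side of the control in all 6 G libraries, and the IIIb and IIIc regulators. Some genes of these lists are counted but not reported here by name. Alternatives covered pseudocounts, scaling, filters, isoform sets, the reference and left-out libraries.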

Additional observations from a re-analysis of the deposited data

How the results depend on the processing

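No paired analysis was possible because each condition is 1 library and every library carries the same replicate number. The removal of the length and GC trend, the 1 kb limit for downstream starts and the restriction of end classes to isoforms with at least 3 control reads were chosen after seeing the data. Of 252 recomputed values, 178 stayed within their counting interval or within 1.5 times of a count, 74 moved, and 0 that were 2-fold from the control changed sign. Values for pseudocounts of 0.1 and 1 TPM, for isoforms with at least 3 control reads and for the 1 kb limit all stayed. How a cause contributes to each move was not tested.

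The median log2 ratio of FGFR1 was -1.24, with -1.53 to -0.95 when 1 G library at a time was left out. It was -1.05 with reference-ID isoforms only, -0.92 without the length and GC trend and -0.28 against the median of the other 6 libraries. That of FGFR4 was -0.74, with -0.94 to -0.54 on leaving out a library, 0.11 without the trend and -0.37 against the other 6. With isoforms of at least 3 control reads the medians were -1.11 for FGFR1 and -0.53 for FGFR4.

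With the trend removed, FGFR1 was at 0.38 in G3, -0.32 in G14, -0.91 in G12, -0.92 in G5, -0.96 in G13 and -1.15 in G11. FGFR4 was at 0.13 in G3, 0.12 in G14, 0.10 in G11, -0.064 in G12 and -0.47 in G13. Against the median of the other 6 libraries FGFR1 was at 2.16 in G3, 0.56 in G5, 0.15 in G14, -0.72 in G11, -0.86 in G12 and -1.49 in G13, so that G5 and G14 changed direction. FGFR4 was then at 1.30 in G3, 1.08 in G5 and -0.067 in G11. With reference-ID isoforms only, FGFR1 was at 1.23 in G3, -0.26 in G5, -1.47 in G12 and -0.69 in G14, and FGFR4 at 0.87 in G3; the share of ENST00000397091.9 was 54.5%, of ENST00000447712.7 25.9%, of ENST00000683815.1 11.4%, of ENST00000502906.5 72.2% and of ENST00000292408.9 27.4%, because the denominator is smaller.

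The pooled share of the G libraries, on leaving out each, was 34.0% to 36.6% for the 6-nt extension after the alpha exon, 93.8% to 94.3% for the longer juxtamembrane exon, 98.3% to 98.8% for the alpha exon and 99.6% to 99.8% for IIIc without IIIb.

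Genes 2-fold from the control numbered 1799 in G14, 1229 in G13, 874 in G11, 840 in G5, 735 in G12 and 554 in G3. In the same order they numbered 1109, 526, 458, 552, 277 and 319 at a mean of at least 20 TPM, 2906, 2477, 1690, 1291, 1606 and 956 without a filter, and 912, 672, 331, 249, 310 and 209 without the trend; at a mean of at least 1 TPM there were 1378 in G11, 1267 in G12 and 2022 in G13. Pathway genes past a 1.5-fold threshold numbered 14 in G13, 12 in G14, 10 in G12, 7 each in G3 and G11 and 3 in G5. Past 2-fold there were 1 in G3 and 3 in G5, 1 in G12 and 4 in G13 without the trend, 1 in G3 under median-of-ratios scaling, and 1 in G5 at a mean of at least 1 TPM.

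Depth limits FGFR2 and FGFR3 most, with 65 and 1 reads over all libraries.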
